A study of Mus musculus with 2 samples.

Results

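The T cell receptor signalling genes were 40 mouse genes listed by name: the CD3 and zeta chains of the receptor, surface molecules of T cells, the kinases, adaptors and enzymes that pass the signal on, and the genes that restrain it. A gene was measured where a probe of the array named its transcript, which held for 38 of the 40, out of 18434 named genes with a probe. Fyn, a kinase, and Cblb, a ubiquitin ligase that restrains the signal, had no named probe and were not analysed here. The list names genes by their roles, and it was drawn up with earlier results of these data known.

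The study compared Menin WT with Menin KO cells, with 1 array for each genotype. Menin, which Men1 encodes, works in transcription complexes with MLL methyltransferases, and the series title concerns senescence and cytokine balance of CD4 T cells under Menin and Bach2. Both cultures came from spleens of female C57BL/6J mice. Naive CD4 T cells, selected as CD4+CD62L+, were activated for 2 days by anti-TCR-β (3 µg/ml, bound to the plate) together with anti-CD28 (1 µg/ml) and IL-2 (2.5 ng/ml). A further 3 days in the same dose of IL-2 followed, so every value describes cells some days after the receptor had been engaged. How Men1 was deleted, the age of the mice and whether cells of several mice were pooled are not given in the sources used here.

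When the T cell receptor binds its ligand, the kinase Lck phosphorylates the tails of the CD3 and zeta chains, and Zap70 docks there and phosphorylates the adaptors Lat and Lcp2 (SLP-76). These gather phospholipase C, guanine nucleotide exchange factors and the Bcl10-Malt1 complex, which lead to calcium, Ras and NF-κB signals. Phosphatases, ubiquitin ligases, diacylglycerol kinases and inhibitory receptors such as CD5 damp the same steps.

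With 1 array per genotype there was no replicate, so no difference was tested and no p-value or standard error is given. Values are the deposited processed signal of 1 probe, a background-subtracted intensity in linear units. Log2 differences are KO minus WT after each array was set to its own 75th percentile of signal (644 on WT and 650 on KO), and folds come from these differences. A gene was called at least 2-fold apart on size alone. For probes printed several times with a signal of at least 100, the spots of a probe scattered around its own log2 difference with a pooled SD of 0.0541 (110 probes). The scanner software's own error estimate per spot gave an SD of 0.204 for the lowest and the median member and 0.351 for the highest, Pag1. Both measures leave out differences between mice, cultures, RNA preparations and hybridisations. Men1 itself had a signal of 1081 on WT and 459 on KO, 2.38-fold lower in KO, read by 1 probe whose place relative to the deleted part is not known. Bach2 had a signal of 4643 on WT and 604 on KO, 7.76-fold lower. All 38 measured members were well above background on both arrays.

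Differences of at least 2-fold ran in 1 direction among the members. In the KO array 9 of 38 were at least 2-fold lower (23.7%), namely Trat1, Cd6, Cd5, Grap2, Txk, Cd2, Tfrc, Dgka and Rasgrp1. Of these, Trat1, Cd5, Txk, Cd2, Tfrc and Dgka had 1 probe each, as had 22 of the 38 members. Their calls could therefore not be compared with another probe. The other probe of Cd6 was also at least 2-fold lower, and that of Rasgrp1 was not. The other probe of Grap2 was not well above background on KO. Over all genes, 694 of 13510 were at least 2-fold lower, or 5.14%. No member was at least 2-fold higher, whereas 1458 genes, or 10.8%, were. The other 29 members lay between. By any amount, 28 of 38 members (73.7%) were below WT, against 52.9% of the 12475 genes above background on both arrays. After normexp background correction 23 members were below WT, and the share of all genes in that setting is not given here. The median log2 difference of the members was -0.21, with quartiles of -0.93 and 0.02, while the median of all genes used was -0.01. After normexp these medians were -0.13 for the members and -0.07 for all genes used. The members were bright genes as a rule: of the 2337 genes brighter than the members' median level, 59 were at least 2-fold lower and 75 higher, and their median was 0.00. Normexp reduced the members called lower to 6 and raised the share of all genes called lower to 13.2%, so that the members' 15.8% stood close to the rest. Local backgrounds over 200 were found at 6 spots on WT and 0 on KO. With these replaced by the array's median, normexp gave 9 members lower (23.7%) against 2.79% of all genes. Only Was then changed sign among the members. Values given below as after normexp are without this replacement. Of all genes called at least 2-fold apart, 67.8% were higher in KO in the main setting, 26.3% after normexp and 67.3% with backgrounds replaced.

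**Figure D1:**
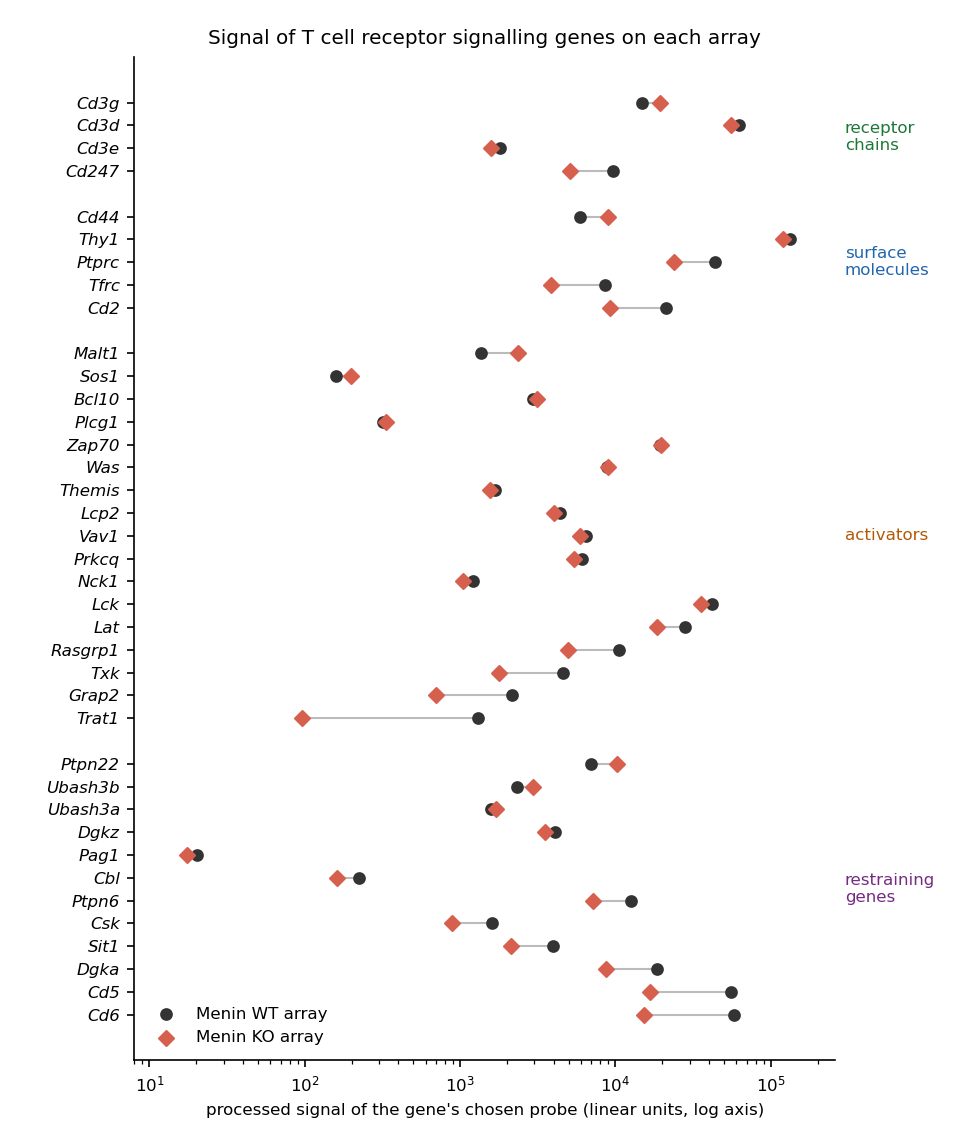
Processed signal of the chosen probe of each of the 38 measured members on the Menin WT array (black circles) and the Menin KO array (red diamonds), on a log axis in linear intensity units, by role group. The widest gaps are those of Trat1, Cd6 and Cd5, while Zap70 and Was lie on top of each other; each point is 1 array.

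**Figure D2:**
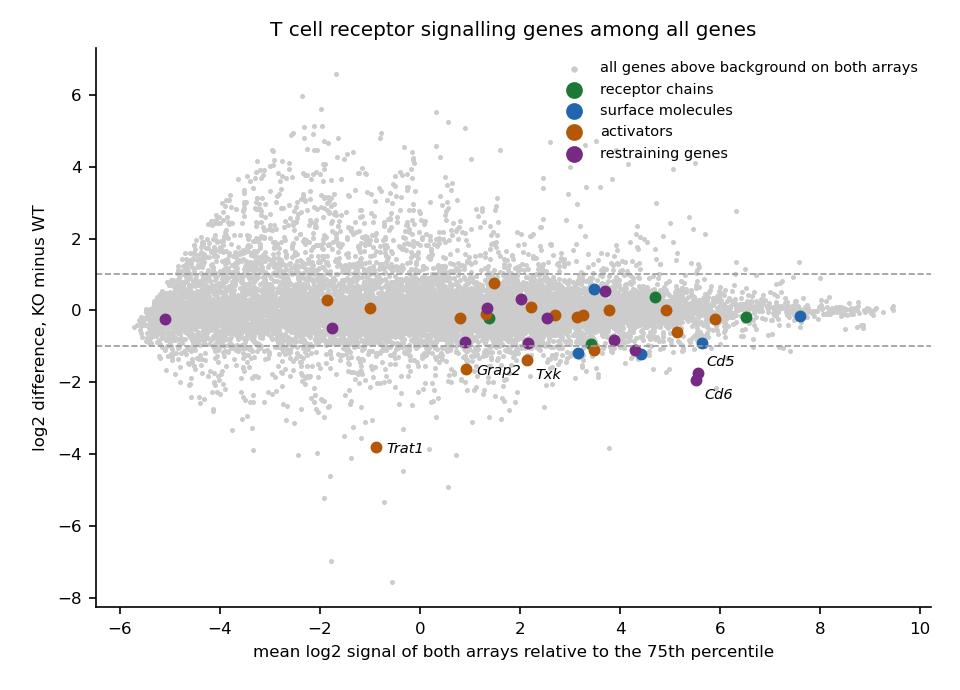
Log2 difference, KO minus WT, against the mean log2 signal of both arrays relative to the 75th percentile, for genes above background on both arrays (grey) and the 38 members (coloured by role group). Dashed lines mark 2-fold; 9 members lie under the lower line and none over the upper one, and the 5 members with the largest differences are named.

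Promoter-proximal sequences of 4 of the 5 members furthest below WT are shown because these genes were lower together. The 250 bases before the annotated start are given 5′ to 3′ on the gene's strand, from RefSeq on GRCm38.p6. Capitals mark matches to 5 short motifs searched on both strands, named after the factors that bind such letters. The motif searched for TCF factors was TCAAAG, and that for AP-1 and Bach factors was TGANTCA. For RUNX factors the letters were TGTGGT, for ETS factors they were AGGAAG, and for GATA factors they were AGATAA, and matches of different motifs may share letters. The Trat1 window lies at chr16:48772063-48772312 on the minus strand, that of Cd5 at chr19:10738975-10739224 (minus), that of Grap2 at chr15:80623233-80623482 (plus) and the first of Txk at chr5:72752778-72753027 (minus). Of a second annotated start of Txk the sequence is not shown.
Trat1: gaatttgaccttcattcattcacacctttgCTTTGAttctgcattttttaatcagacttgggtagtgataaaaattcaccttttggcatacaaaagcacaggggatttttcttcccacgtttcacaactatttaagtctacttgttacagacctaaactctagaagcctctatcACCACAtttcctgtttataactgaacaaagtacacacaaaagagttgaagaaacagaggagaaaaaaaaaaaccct
Cd5: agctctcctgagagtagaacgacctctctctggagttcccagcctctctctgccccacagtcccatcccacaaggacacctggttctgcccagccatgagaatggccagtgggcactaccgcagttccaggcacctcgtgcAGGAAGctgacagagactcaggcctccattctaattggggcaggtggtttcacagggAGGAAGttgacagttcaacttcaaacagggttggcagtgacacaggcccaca
Grap2: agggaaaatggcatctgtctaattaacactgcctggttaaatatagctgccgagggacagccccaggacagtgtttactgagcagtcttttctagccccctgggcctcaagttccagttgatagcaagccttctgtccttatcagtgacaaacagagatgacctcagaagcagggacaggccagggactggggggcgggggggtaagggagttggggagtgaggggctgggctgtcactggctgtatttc
Txk: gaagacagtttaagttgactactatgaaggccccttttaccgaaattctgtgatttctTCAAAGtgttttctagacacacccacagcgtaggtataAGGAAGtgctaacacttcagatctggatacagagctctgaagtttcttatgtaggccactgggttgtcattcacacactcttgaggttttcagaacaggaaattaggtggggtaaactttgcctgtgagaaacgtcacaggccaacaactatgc

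No motif stood before all of the lower genes. The Trat1 window held 1 TCF and 1 RUNX match, the Cd5 window 2 ETS matches, the first Txk window 1 TCF and 1 ETS match, and the Grap2 window none of the 5. Windows were found for 35 of the 40 listed genes. Cd2, Cd6, Malt1, Pag1 and Thy1 were not matched, so 7 of the 9 lower members could be read. The TCF letters stood before 3 of these 7 (Dgka, Trat1 and Txk) and 5 of 26 other measured members, against 15.8% of all 27025 genes with a window. The RUNX letters stood before 2 of 7 and 5 of 26 (15.9% of genes), the ETS letters before 4 of 7 and 19 of 26 (32.3%), and the GATA letters before 1 of 7 and 5 of 26 (11.4%). The AP-1 and Bach letters were found before 0 of 7 and 0 of 26, against 7.82% of genes. All these shares count a gene once if any of its windows matched, and a match describes letters only.

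Receptor chains differed by less than 2-fold, with Cd247 apart from the 3 CD3 genes. Cd3d, Cd3e and Cd3g encode the delta, epsilon and gamma chains that pair beside the antigen-binding chains. Cd3d had a signal of 62714 on WT and 55593 on KO (log2 difference -0.19, and 0.06 after normexp), and Cd3e had 1801 and 1584 (-0.20). Cd3g went the other way, with 14762 on WT and 19263 on KO (0.37). Cd247 encodes the zeta chain, which carries most of the receptor's signalling motifs. Its signal was 9593 on WT and 5068 on KO, 1.91-fold lower in KO. It had 3 probes, and the other 2 read 2428 and 1249, and 103 and 52.2, so that all 3 gave log2 differences between -0.99 and -0.93. The median of the 4 chains was -0.19. It turned to 0.0047 after normexp, but was -0.18 after normexp with backgrounds replaced.

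The 3 CD3 genes are neighbours on chromosome 9, and Cd3g and Cd3d start on opposite strands with 854 bases between their windows. Their windows are shown because this divergent pair differed in sign in the main setting. The Cd3d difference of -0.19 was smaller than the scanner software's SD of 0.204 for it. After normexp it was 0.06, the same sign as Cd3g, and with backgrounds replaced it was -0.17. That of Cd3g lies at chr9:44980432-44980681 (minus strand) and held 1 GATA match. That of Cd3d lies at chr9:44981536-44981785 (plus strand) and held 2 TCF matches and 1 ETS match.
Cd3g: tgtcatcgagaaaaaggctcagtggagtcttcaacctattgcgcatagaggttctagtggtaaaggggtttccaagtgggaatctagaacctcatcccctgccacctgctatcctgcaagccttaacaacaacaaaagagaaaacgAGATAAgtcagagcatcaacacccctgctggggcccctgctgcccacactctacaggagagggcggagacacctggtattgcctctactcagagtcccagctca
Cd3d: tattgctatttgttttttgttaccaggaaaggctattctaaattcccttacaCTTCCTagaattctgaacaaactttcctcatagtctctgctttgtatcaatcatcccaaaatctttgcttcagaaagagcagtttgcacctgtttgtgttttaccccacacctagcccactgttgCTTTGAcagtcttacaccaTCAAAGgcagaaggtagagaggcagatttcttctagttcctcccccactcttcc

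The surface molecules had a median of -0.90, and 2 of 5 were called lower, against 5.14% of all genes. Cd2, an adhesion receptor that binds CD48, had a signal of 21038 on WT and 9171 on KO, 2.31-fold lower in KO. Tfrc, the transferrin receptor that dividing cells use to take up iron, had 8609 and 3836, 2.26-fold lower. Both stayed lower after normexp but by less than 2-fold, with log2 differences of -0.92 for Cd2 and -0.93 for Tfrc. Ptprc encodes CD45, the phosphatase that keeps Lck ready by removing its inhibitory phosphate. Its signal was 43984 on WT and 23835 on KO, 1.86-fold lower, and its other 2 probes gave log2 differences of -1.09 and -0.85. Thy1, the CD90 glycoprotein on all mouse T cells, had 132209 and 119433 (-0.16, and 0.17 after normexp). Cd44, a hyaluronan receptor that stays high on T cells that have met antigen, was the surface gene higher in KO. It had a signal of 5893 on WT and 8968 on KO, 1.51-fold higher, and its 10-spot probe gave a log2 difference of 0.64.

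Repeat spots show how far the technical scatter lay from these differences. The 10 usable Tfrc spots on WT ran from 8311 to 8963 (mean 8612 ± 215, SD over spots), and the 9 on KO from 3738 to 3888 (mean 3837 ± 50.1). For Ptprc the 9 usable WT spots ran from 42825 to 44803 (43990 ± 719) and the 10 KO spots from 23188 to 24326 (23838 ± 359). For Cd44 the 10 WT spots ran from 1388 to 1581 (1485 ± 64.6) and the 10 KO spots from 2270 to 2399 (2335 ± 47.3). The spots of the arrays did not overlap for any of the 3 genes, in either direction. Overlap was not counted for the other probes printed several times, so this does not set the 3 genes apart. Spots of 1 array share 1 RNA sample, so these SDs are not errors of the genotype difference.

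**Figure D3:**
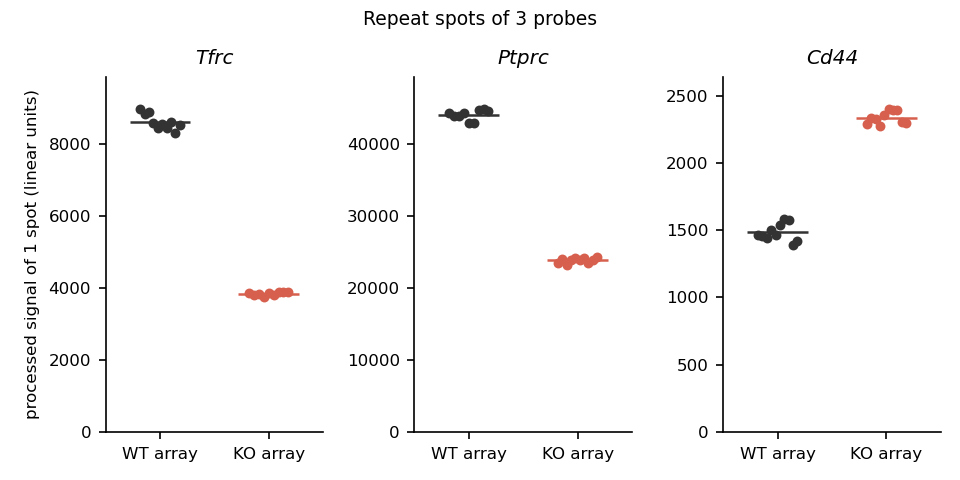
Processed signal of every usable spot of the probes for Tfrc, Ptprc and Cd44 that were printed 10 times, on the Menin WT and the Menin KO array; points are spread sideways only for display. KO spots lie under all WT spots for Tfrc and Ptprc and over all WT spots for Cd44.

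The activators had a median of -0.13 (-0.004 after normexp and -0.13 with backgrounds replaced). Of 17 activators 4 were called lower, against 5.14% of all genes. The other 13 were inside the 2-fold limit. The kinases differed among themselves. Txk, a Tec-family kinase of resting T cells, had a signal of 4600 on WT and 1770 on KO, 2.62-fold lower in KO. Lck, the first kinase of the pathway, had 42113 and 35712 (log2 difference -0.25). Zap70, which binds the phosphorylated chains, had 19250 and 19759 (0.02). Of the 3, Txk alone was more than 1.5-fold apart between the arrays.

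All 7 adaptors were below WT by some amount. After normexp 3 of them (Lcp2, Themis and Was) were above it by up to 0.25 on the log2 scale. With backgrounds replaced only Was was above it (0.03). Trat1, encoding TRIM, a membrane adaptor that associates with the receptor complex, showed the largest difference of any member. Its signal was 1311 on WT and 95.5 on KO, 13.9-fold lower, and its log2 difference of -3.79 ran from -3.87 to -2.93 over 10 other processing settings. Grap2, encoding GADS, the adaptor that bridges Lat and Lcp2, had 2145 on WT and 697 on KO (log2 difference -1.63). Its second probe was dim, with 27.2 on WT and 7.2 on KO, where it was not well above background. Grap2's partners differed less: Lat had 27977 and 18528 (log2 difference -0.61), and Lcp2 had 4379 and 4048 (-0.13). Nck1, which links to the actin skeleton, had 1202 and 1046 (-0.21). Themis, an adaptor that tunes the signal in thymocytes, had 1666 and 1568 (-0.10, with -0.43 from its other probe). Was, encoding the actin regulator WASP, had 8880 and 8954, a log2 difference of -0.001 after scaling, with 0.03 from its other probe. It also stood slightly above WT under quantile normalization, loess and the authors' values. The adaptors thus ranged from 13.9-fold apart to level.

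Enzymes and effectors had a median of 0.06, and 1 of 7 was at least 2-fold lower, against 5.14% of all genes. Rasgrp1, the diacylglycerol-activated exchange factor that switches on Ras, had a signal of 10533 on WT and 4966 on KO, 2.14-fold lower. Its other probe had 322 and 232 (log2 difference -0.48), and the mean over both probes was -0.79. After normexp the difference of the first probe was -0.83, so both choices took Rasgrp1 inside the 2-fold limit. Sos1, the other Ras exchange factor of the list, had 160 and 197 (0.29) on 1 probe and -0.27 on another, of opposite sign. Malt1, the protease and scaffold of the NF-κB branch, was the member furthest above WT. It had a signal of 1367 on WT and 2354 on KO, 1.71-fold higher. Its partner Bcl10 had 2931 and 3136 (0.08). Vav1, an exchange factor for Rac, had 6431 and 5919 (-0.13). Prkcq, encoding protein kinase C theta, had 6074 and 5400 (-0.18). Plcg1, the phospholipase that cleaves PIP2, had 317 and 334 (0.06). The last 3 were among the 9 members whose small difference changed sign after normexp. With backgrounds replaced these 3 kept their sign.

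**Figure D4:**
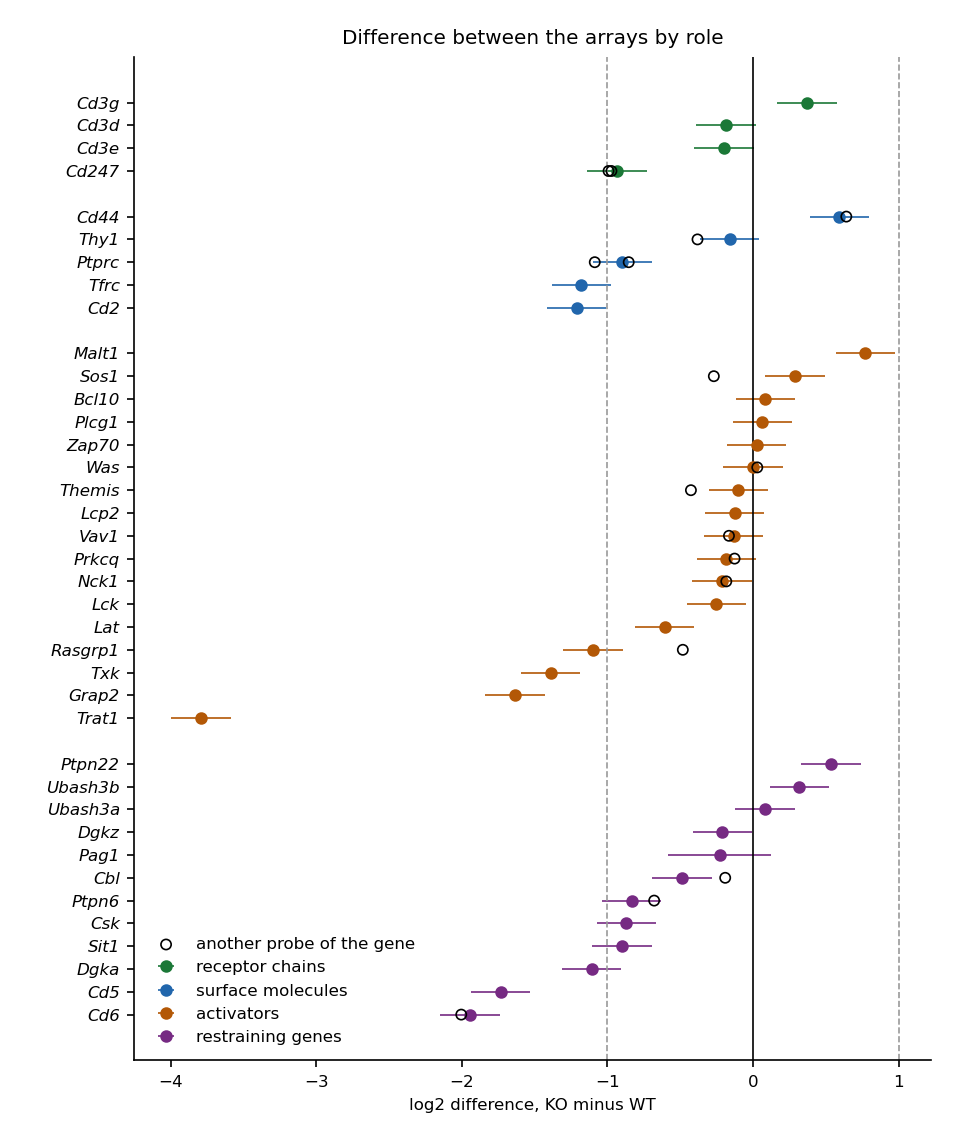
Log2 difference, KO minus WT, of the chosen probe of each measured member by role group, with the other probes measured on both arrays as open circles and dashed lines at 2-fold. Bars show 1 SD of the difference from the scanner software's error estimate, which is not a replicate error. Trat1 lies at -3.79, Malt1 at 0.77, and no member lies beyond the upper 2-fold line.

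Among restraining genes, 3 of 12 were called lower, against 5.14% of all genes, and 9 of 12 were below WT, with a median of -0.66. Without Cd5 and Cd6, which are also surface receptors, the median was -0.36. Cd6 and Cd5 are related scavenger-receptor cysteine-rich receptors that damp T cell receptor signals, and both lead the group. Cd6 had a signal of 57880 on WT and 15197 on KO, 3.84-fold lower in KO. Its other probe had 1066 and 268, 4.01-fold lower. Cd5 had 55133 on WT and 16739 on KO, 3.32-fold lower. Dgka, a kinase that removes diacylglycerol and so limits Ras activation, had 18519 and 8672, 2.15-fold lower (log2 difference -0.88 after normexp). Dgkz, its relative with the same activity, had 4054 and 3536 (-0.21). Dgka and Rasgrp1, which act in opposite directions on the same lipid signal, thus had log2 differences of -1.11 and -1.10. Dgka had 1 probe, and the other probe of Rasgrp1 gave -0.48, with a mean over its probes of -0.79.

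A second set of restraining genes was lower by less than 2-fold. Csk, the kinase that adds the inhibitory phosphate to Lck, had a signal of 1615 on WT and 892 on KO (log2 difference -0.87). Ptpn6, the phosphatase SHP-1, had 12691 and 7190 (-0.83, with -0.68 from its other probe). Sit1, a membrane adaptor that recruits phosphatases, had 3950 and 2136 (-0.90). With Ptprc, this put both the kinase and the phosphatase that set the inhibitory phosphate of Lck 1.5-fold or more below WT. Cbl, a ubiquitin ligase, had 224 and 161 (-0.49, with -0.19 from its other probe). Pag1, the membrane anchor of Csk, was near the background, with 20.3 and 17.5 (-0.23).

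The remaining restraining genes stood above WT. Ptpn22, a phosphatase that acts on Lck and Zap70, had a signal of 6995 on WT and 10240 on KO (log2 difference 0.54). Ubash3b, encoding the phosphatase STS-1, had 2332 and 2932 (0.32). Its relative Ubash3a had 1584 and 1690 (0.08). Ptpn22 and Csk, whose products bind each other, differed in sign. Side by side, 3 of 12 restraining genes and 4 of 17 activators were called lower, and 9 of 12 and 12 of 17 were below WT. Over all genes 5.14% were called lower, and 52.9% of those above background on both arrays were below WT. After normexp Dgka and Rasgrp1 were no longer called, and Pag1, near the background, was (-1.21).

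Neighbouring genes gave differing pictures. Cd5 and Cd6 lie side by side on chromosome 19 and were both lower (log2 differences of -1.73 and -1.94), while the genes on either side of the pair, Vps37c and Slc15a3, were above WT (0.21 and 1.12). Txk lies beside Tec, a kinase of the same family, on chromosome 5. Tec had a signal of 776 on WT and 1849 on KO, a log2 difference of 1.24, against -1.39 for Txk. The gene on the other side of Txk, Nipal1, was lower (-1.84). Trat1 on chromosome 16 lies between Morc1, which was lower as well (-2.65), and Retnlb, whose log2 difference was a bound of -1.57. These places were chosen for mention after their values were seen.

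Other genes of the pathway, from a list of 69, were mostly less than 2-fold apart. Of these, 68 had a probe, Nfkb1 had none, and Itch and Rel were not well above background. The 66 measured had a median of -0.18, and 3 of them were called lower, 2 higher and 61 neither. The lower genes made up 4.55%, where 5.14% of all genes were lower and 10.8% higher. Those shares include genes above background on 1 array only, whereas all 66 were above background on both. Of the 12475 genes above background on both arrays, 563 (4.51%) were lower and 1105 higher. Of the 2337 genes brighter than the members' median level, 59 were lower and 75 higher. Fyb, encoding ADAP, which couples the receptor to integrins, had a signal of 21177 on WT and 8310 on KO (log2 difference -1.36). Rasa1, a GTPase-activating protein that turns Ras off, had 783 and 394 (2.01-fold lower, with a log2 difference of -0.84 after normexp). Nfatc2, an NFAT transcription factor, had 478 and 29.9 on its brightest probe (-4.01). Its other 2 probes gave -0.21 and -0.33 and normexp gave -0.79, so its probes disagreed on a difference of that size. The 2 higher genes were Tec and Itpr1, the calcium release channel of the endoplasmic reticulum, which had 5659 and 16176 (2.83-fold higher).

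**Figure D5:**
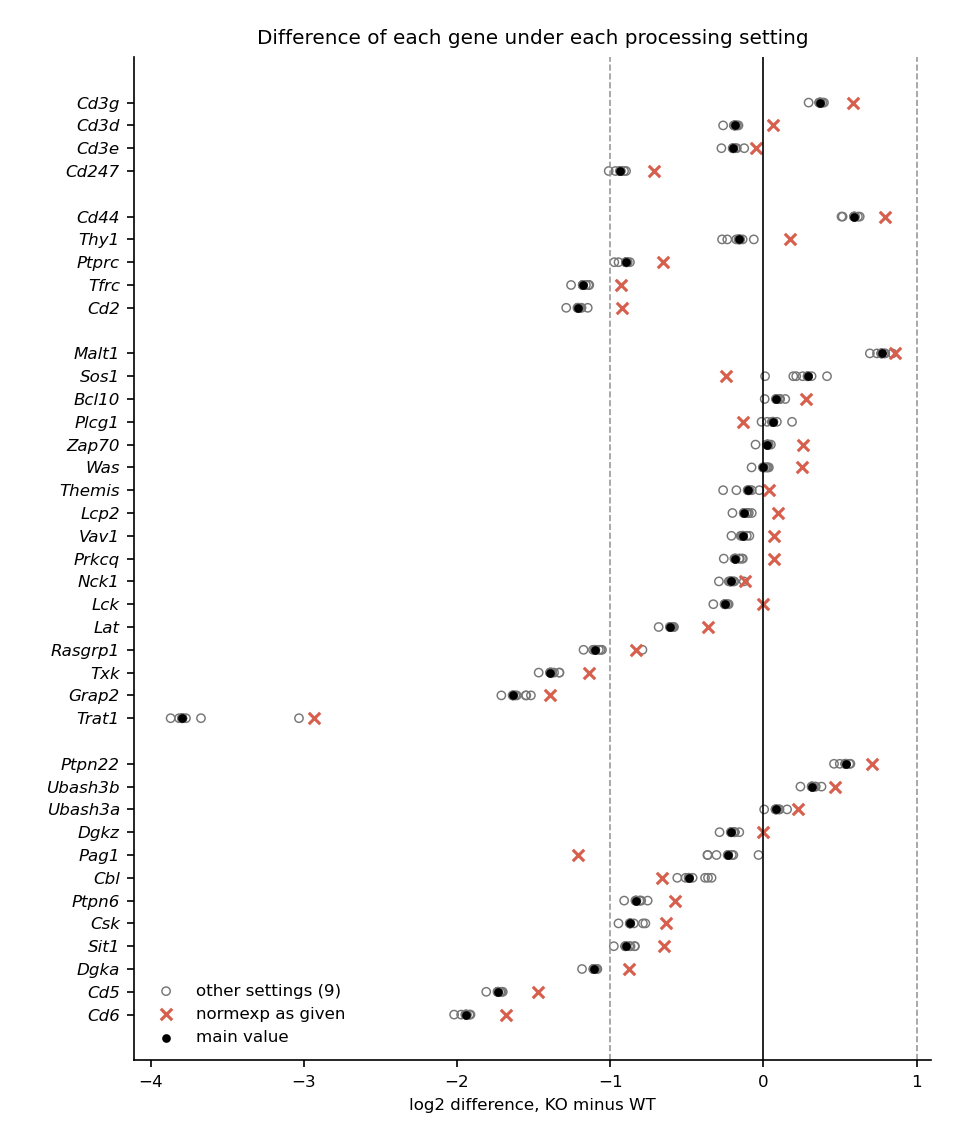
Log2 difference, KO minus WT, of each member in the main setting and under the other processing settings, with normexp as red crosses and dashed lines at 2-fold. Normexp gave Trat1 its smallest difference (-2.93), and Trat1, Cd6, Cd5, Grap2 and Txk stayed at least 2-fold lower in all 10 of them. The filters on dim probes left every member at its main value, so the 10 settings are not separate support.

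Some markers of other cells differed between the arrays. Cd4 had a signal of 443 on WT and 279 on KO (log2 difference -0.68), and Cd40lg, the CD40 ligand of helper T cells, had 73.3 and 34.6 (-1.09). Cd8a, which defines CD8 T cells, had 312 and 3213 (3.35). The counts that follow are of markers at least 2-fold higher in KO, where 10.8% of all genes were. Of 6 natural killer cell markers 2 were higher, Tyrobp and Klrb1c, and Eomes was lower. Their summed signal was 1563 on WT and 2600 on KO, of which Eomes alone had 1031 and 452. Of 6 B cell markers 1 was higher, with sums of 906 and 1598, of which Cd79b had 665 and 1155. Blk and Pax5 were not above background on either array. Of 6 macrophage markers 2 were higher (sums 356 and 555). Cd14 had 35.0 and 256 of these sums, while C1qb stood at 0.00 on the log2 scale, Csf1r at -0.39, Mpeg1 at -0.64 and Lyz2 at a bound of -0.92. Of 5 dendritic cell markers 1 was higher (sums 173 and 791), and that gene, Itgax, made up most of the KO sum with 20.0 on WT and 623 on KO. Of 5 mast cell and basophil markers 3 were higher (98.7 and 636). Siglech and Ms4a2 were not above background on either array, and neither was Sox13, the 1 measured marker of gamma delta T cells. Of 2 measured red cell markers 1 was higher (105 and 290). Among members that T cells share whatever their class, Cd3d, Cd3e, Cd3g, Thy1, Lck and Zap70 were within 1.5-fold. Lat, Cd247, Ptprc, Cd2, Cd5 and Cd6 were 1.52-fold to 3.84-fold lower in KO. The log2 difference of Lat was -0.36 after normexp. These genes were picked with their values known. The part of other cells in the differences above was not tested, and in a bulk sample fewer cells of a type and less RNA per cell cannot be told apart.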

How the data were processed

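Total RNA of 2 cultures (500 ng each) was labelled with Cy3 and hybridised to Agilent mouse arrays. Per the submitters' processing notes, signals were extracted with Agilent Feature Extraction 10.7. The intensity used is the processed signal the authors deposited, background-subtracted on a linear scale. The authors' value table holds log2 of the same signal minus a constant per array (99.7% of probes matched within 0.01 on either array), which settles scale and direction.

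Flagged spots were left out (115 on WT, 103 on KO, of 43379 non-control spots each), and 59.5% and 63.5% of spots were well above background. Log2 signals were centred on each array's 75th percentile, and repeat spots were averaged. Probes were named by transcript through a RefSeq table (GRCm38.p6): 27050 of 41174 had 1 symbol and 14124 none. A gene took its brightest probe well above background on at least 1 array. A gene above background on 1 array only had a bound as its difference; 277 of 13787 measured genes had no usable bound, leaving 13510. A difference of 2-fold was the size rule. Alternatives comprised normexp (limma 3.58.1 in R 4.3.3, offset 50, on median spot signals and local median backgrounds), quantile normalization, median centring, loess, the authors' values, the mean over probes, filters on dim probes, flagged spots kept, other fold limits, and Cd5 and Cd6 counted as surface molecules. The computing used Python 3.11.15 with pandas 2.3.3, and the procedure was tested on simulated data.

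The members, role groups, pathway list, markers and motifs were chosen with earlier results of these data known. All members are named, as are pathway genes at least 2-fold apart; other pathway genes are counted.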

Additional observations from a re-analysis of the deposited data

How the results depend on the processing

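The number of members at least 2-fold lower in KO was 9 in the main setting and 9 in 7 of 10 other settings. It was 10 under median centring (adding Cd247), 8 with the mean over probes (losing Rasgrp1) and 6 after normexp. Several of the 7 could hardly differ from the main setting. Both filters on dim probes returned the main value of every member, whose chosen probes were above background on both arrays. The authors' values are nearly the same signal minus a constant, and keeping flagged spots barely moved the scaling. Normexp lost Cd2, Dgka, Rasgrp1 and Tfrc and added Pag1 (-1.21) through another probe. No member was at least 2-fold higher in any of the 10. Local backgrounds over 200 were found at 6 spots on WT and 0 on KO; with those backgrounds replaced by the array's median, normexp gave the main setting's 9 members. Normexp also left 1 pathway gene at least 2-fold lower, a receptor chain median of 0.0047 and a surface molecule median of -0.65. With the backgrounds replaced these were 2, -0.18 and -0.89. Normexp without the replacement gave 1682 lower and 601 higher of all genes. These counts were 369 and 760 with the backgrounds replaced and 1113 and 2121 with no filter on dim probes. A limit of 1.5-fold gave 15 members lower and 2 higher, with 13 pathway genes lower and 5 higher. A limit of 4-fold gave 1 member lower, with 1 pathway gene lower and 0 higher. Shares of all genes at these limits are not given here, so these counts cannot be set against them. Counting Cd5 and Cd6 with the surface molecules moved the medians to -0.36 for restraining genes and -1.18 for surface molecules. No paired analysis was possible because each genotype had 1 array. Signal over background limits Pag1, whose signal was near 20.3, and the number of arrays limits every value.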
